A study of Homo sapiens with 8 samples.

Results

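Solute carriers (SLC) are the membrane proteins that move amino acids, sugars, ions, metals, nucleotides and organic acids across the plasma membrane and the membranes of organelles. The members described here are the rows of the deposited gene count table whose symbol begins with SLC and a digit, without symbols that hold a hyphen (0 such symbols were present). The rule found 177 of 10105 genes, or 1.75% of the table. By their SLC family, 34 belong to the SLC25 family, 24 are amino acid carriers and 114 are other transporters. The SLC25 members are called mitochondrial carriers below, although SLC25A17 is a carrier of peroxisomes and SLC25A46 a protein of the outer mitochondrial membrane. The remaining 5 carry an SLC symbol but do not code for transporters (SLC2A4RG, SLC4A1AP, SLC7A6OS, SLC9A3R1 and SLC9A3R2), and SLC4A1AP was put there after the gene names had been seen.

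The study compared HEK293T cells, a human embryonic kidney cell line, that were wild type (WT) or XRN1-null. XRN1 is the cytoplasmic exonuclease that degrades decapped mRNA from its 5′ end. Total mRNA was measured by RNA-Seq, and ribosome-protected fragments (RPF), the pieces of mRNA covered by translating ribosomes, were measured by Ribo-Seq, in 2 biological replicates per genotype and assay (8 libraries). The XRN1-null group is a single CRISPR/Cas9-edited line, so line and genotype cannot be told apart, and whether it was derived from 1 cell is not given in the sources used here. The labels name no treatment, and cells of both genotypes had grown for 24 h on 15 cm dishes when they were harvested.

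SLC proteins fall into families by sequence, and members of 1 family often carry related substrates. Most members of the SLC25 family sit in the inner mitochondrial membrane and exchange metabolites, nucleotides and phosphate with the cytosol. Several amino acid exchangers of the SLC7 family work only as a pair with the glycoprotein SLC3A2, which brings them to the plasma membrane. Genes for several amino acid carriers are induced when amino acids run short, through a DNA element that binds C/EBP and ATF factors.

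Promoter windows of the members that the results below turn on are shown first. For 146 members RefSeq gave a promoter (build GRCh38.p14, from 250 bases before to 50 after the gene start), a newer build than the hg19 to which the reads were mapped. The core of the amino acid response element was searched as TGATGNAA on both strands. It was present in 4 of 19 amino acid carrier promoters (21.1%), 1 of 29 mitochondrial (3.45%) and 2 of 93 other transporter promoters (2.15%), against 1.44% of the 8338 promoters of genes in the table and 3.67% of all 27305 RefSeq promoters. The 4 amino acid carriers are shown here because their mRNA values are described below. Capitals mark the match, which reads as the reverse complement where it lies on the other strand.
SLC1A3 (chr5:36596357-36596386, plus strand, match on the gene strand): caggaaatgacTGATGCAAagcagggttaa
SLC3A2 (chr11:62881719-62881748, plus strand, match on the other strand): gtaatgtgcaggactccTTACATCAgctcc
SLC7A1 (chr13:29595663-29595692, minus strand, match on the gene strand): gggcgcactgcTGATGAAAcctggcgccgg
SLC38A1 (chr12:46266502-46266531, minus strand, match on the gene strand): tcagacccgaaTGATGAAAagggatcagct

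The E-box CACGTG, the palindrome bound by the MYC and MITF/TFE families, was found in 6 of the 29 promoters of members whose mRNA was lower in XRN1-null cells (20.7%), in 2 of 21 promoters of members with higher mRNA (9.52%), in 18 of all 146 (12.3%) and in 10.8% of the promoters of genes in the table. By class it was in 6 of 29 mitochondrial (20.7%), 3 of 19 amino acid (15.8%) and 9 of 93 other transporter promoters (9.68%), while the response element core was in 2 of the 21 promoters of higher and 1 of the 29 of lower members. The consensus element of NRF1 was in 1 of 146, against 2.67% of the promoters of genes in the table. Of the lower members with an E-box 5 are shown because they are described below, together with SLC43A1 and SLC25A36, whose mRNA was higher. Capitals mark the E-box.
SLC7A5 (chr16:87869620-87869649, minus strand, match on the gene strand): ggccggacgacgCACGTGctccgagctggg
SLC16A9 (chr10:59710109-59710138, minus strand, match on the gene strand): gcttggccagggCACGTGgtgggcggcggg
SLC25A33 (chr1:9539427-9539456, plus strand, match on the gene strand): tccggcccccgcCACGTGacggccgcgcgc
SLC25A51 (chr9:37904169-37904198, minus strand, match on the gene strand): cggtgtctccctCACGTGaccccaacagcg
SLC29A1 (chr6:44219365-44219394, plus strand, match on the gene strand): cagtgCACGTGctcccaggtctcagggagg
SLC43A1 (chr11:57515797-57515826, minus strand, match on the gene strand): cagcgggcgagtCACGTGcgcgtgaaactc
SLC25A36 (chr3:140941681-140941710, plus strand, match on the gene strand): gcccgtagggatCACGTGaaagaacactgc

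A match states only that these letters are in the window, and no binding was measured.

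Library totals were 33757487 to 38145433 counts for RNA-Seq and 1921641 to 4399542 for Ribo-Seq. The median member had 1550 to 1762 counts per RNA-Seq library but 67 to 135 per Ribo-Seq library, and 171 members had at least 10 counts in every library, which limits the precision of the footprint changes. As a check of the labels, the targeted gene XRN1 had 1187 and 1084 RNA-Seq counts in the WT libraries against 10655 and 9834 in the XRN1-null libraries, and its RPF level was 34.4 and 49.9 CPM (counts per 1 M counts) against 22.6 and 18.4 CPM. Reads outside the edited site do not check a small edit, and XRN1 footprints per mRNA fell by 4.09 on the log2 scale (edgeR adjusted p = 1.66e-06). Of 6 genes listed as markers of HEK293T cells 5 were in the table (NEFM, LIN28B, VIM, KRT18 and IGF2BP1), of which NEFM was lower (log2 fold change of mRNA -0.59) and KRT18 (0.49) and IGF2BP1 (0.72) higher in XRN1-null cells, and of 6 markers of other cell types only the collagen gene COL1A1 was, with 492 and 505 RNA-Seq counts in WT libraries against 1394 and 1452 in XRN1-null libraries; the part of these differences in any result was not tested. In bulk libraries fewer cells of a kind and less RNA per cell cannot be told apart.

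In WT cells the SLC genes spanned a wide range of mRNA levels, and the mitochondrial carriers held the top of it. Levels are given as CPM per kb of the deposited gene width, which allows genes to be compared. SLC25A5, the main ADP/ATP carrier of proliferating cells, had a mean level of 715 CPM per kb (n = 2), followed by the phosphate carrier SLC25A3 at 248 and SLC25A39, a carrier of mitochondrial glutathione, at 219. Of the other adenine nucleotide carriers, SLC25A4 stood at 18.5 CPM per kb. SLC25A5 has processed copies elsewhere in the genome, which makes its level uncertain.

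The amino acid carriers were led by SLC1A5, the glutamine and neutral amino acid exchanger, at 165 CPM per kb and by SLC7A5, the large neutral amino acid exchanger LAT1, at 134. The SLC7A5 partner SLC3A2 stood at 78.4 CPM per kb, and the cationic amino acid carrier SLC7A1 at 36.4. Among the other transporters the highest was SLC16A1, the lactate and pyruvate carrier MCT1, at 83.9 CPM per kb. By class the median mRNA level in the 2 WT libraries was 20.4 and 20.2 CPM per kb for mitochondrial carriers, 8.64 and 8.84 for amino acid carriers and 11.4 and 10.7 for other transporters, against 14.9 and 15.1 over all genes.

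The order of the classes was different for translational efficiency (TE), the ratio of RPF CPM to mRNA CPM, which is relative to each library. The ratio has no term for the translated part of each mRNA. Rankings of genes or classes by TE are therefore not rankings of translation alone. The median TE in the 2 WT replicates was 0.972 and 1.11 for amino acid carriers, 0.756 and 0.707 for other transporters and 0.611 and 0.548 for mitochondrial carriers, against 0.812 and 0.822 over all genes. The medians of the 3 classes kept this order in both replicates, and single genes within each class ranged widely. SLC3A2 mRNA was carried at a TE of 2.03, SLC1A5 at 1.18 and SLC7A5 at 0.38, so that the ratio was higher for the heavy than for the light chain of the LAT1 exchanger, in WT replicates 1 and 2 alike.

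Among the highest WT TE values of members with at least 50 RPF counts in every library (107 members) were those of SLC43A2, a facilitative carrier of large neutral amino acids, at 3.41 and of SLC35E2 at 2.67. SLC35E2 has a near copy, SLC35E2B, and its value is uncertain. The lowest were the creatine transporter SLC6A8 at 0.172, the Golgi nucleotide sugar family member SLC35A4 at 0.201 and SLC25A39 at 0.232. On the other strand SLC6A8 overlaps PNCK and SLC35A4 overlaps APBB3, which makes both values uncertain.

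Below that count, SLC25A23, a calcium-regulated carrier of ATP-Mg and phosphate named after its values were seen, had a mean WT mRNA level of 188 CPM but 7.59 CPM of RPF, a TE of 0.0403. Its RPF was 9.9 and 5.28 CPM in WT and 3.97 and 2.19 CPM in XRN1-null cells, low in all 4 libraries. It overlaps CRB3 on the opposite strand (hg19, chr19:6436090-6465214, minus strand), and the RNA-Seq kit named in the study's methods does not mark strand, so reads of the 2 genes cannot be told apart where they overlap.

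**Figure D1:**
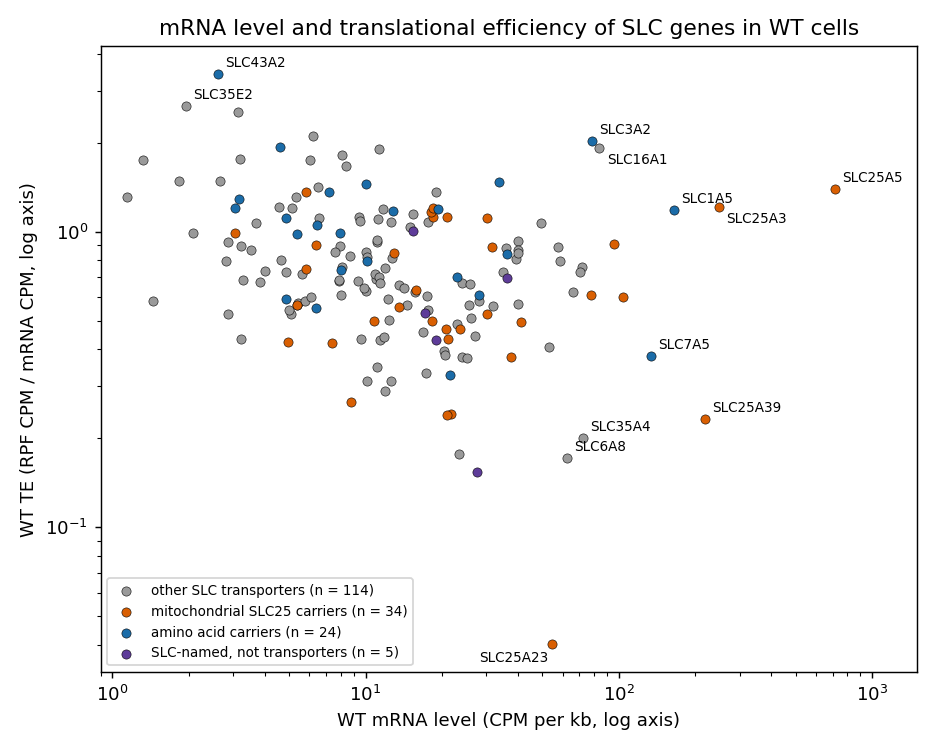
WT mRNA level (x axis, CPM per kb, log scale) against WT TE (y axis, RPF CPM over mRNA CPM, log scale) for the 177 SLC genes, each point the mean of 2 replicates and coloured by class. SLC25A5, SLC25A3 and SLC25A39 lie at the right, SLC43A2 at the top left with a TE of 3.41, and SLC25A23 at the bottom with a TE of 0.0403.

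The first comparison asked which SLC mRNAs change in abundance when XRN1 is missing. Of the 177 members, 29 were higher and 40 lower in XRN1-null cells at an FDR below 0.005, and 108 passed in neither direction (edgeR's quasi-likelihood test, FDR being the Benjamini-Hochberg adjusted p over 10105 genes). Over all genes 22.9% were called higher and 23.2% lower (46.1% in either direction), so that the share of members called higher, 16.4%, lay below the background and the share called lower, 22.6%, beside it. The median log2 fold change of members was -0.099, against -0.015 over all genes. Scaling by library totals in place of TMM factors changed the split to 34 higher and 30 lower (2664 and 1924 over all genes, in place of 2313 and 2344), and single libraries moved the counts, with 18 higher and 20 or 17 lower when either XRN1-null library was left out, and 45 and 42 higher with 58 and 72 lower without WT replicate 1 or 2. Over all genes the same fits gave 1632 and 1652 higher with 1113 and 1097 lower without XRN1-null replicate 1 or 2, and 3195 and 3410 higher with 3114 and 3389 lower without WT replicate 1 or 2.

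The level in WT cells is 1 side of the mRNA comparison, so levels by call are a description. The 29 higher members had a median WT level of 5.6 CPM per kb, against 20.7 for the 40 lower and 11.9 for the other members, and in XRN1-null cells the medians were 10.8, 14.4 and 11.7. Over all genes the WT medians were 8.26, 32.7 and 15, and the XRN1-null medians 14.3, 22.6 and 15.1. Both XRN1-null libraries lay above both WT libraries for 54 members (30.5%, against 41% of all genes) and below both for 91 (51.4%, against 43.7%).

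Of the 34 mitochondrial carriers 3 rose (8.82%) and 10 fell (29.4%), against 22.9% and 23.2% of all genes, with a median log2 fold change of -0.17. The largest fall was that of SLC25A22, a mitochondrial glutamate carrier. Its mRNA was 76.4 and 76 CPM in WT and 44.5 and 44.5 CPM in XRN1-null cells, a log2 fold change of -0.78 (SE 0.061, edgeR FDR 4.00e-05). Each pair of replicates lay close together and the 2 genotypes did not overlap.

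SLC25A33, a pyrimidine nucleotide carrier, fell from 61.1 and 58.7 CPM to 38.5 and 37.7 (log2 fold change -0.65, edgeR FDR 0.000102). SLC25A51, which carries NAD+ into mitochondria, fell from 27.1 and 27.6 CPM to 17.8 and 19.8 (-0.54, edgeR FDR 0.000969). Both hold an E-box in the windows shown above, as do SLC25A36, which rose, and 3 mitochondrial carriers that passed in neither direction (SLC25A13, SLC25A38 and SLC25A46). SLC25A30 fell by 0.50 and SLC25A15, the ornithine carrier of the urea cycle, by 0.47 on the log2 scale (edgeR FDR 0.000538 and 0.000389).

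Of the most abundant carriers 2 fell. SLC25A5 mRNA fell from 943 and 989 CPM to 721 and 727 CPM (-0.42, edgeR FDR 0.00064), and SLC25A39 from 380.2 and 343 to 267 and 266 (-0.44, edgeR FDR 0.00111). The phosphate carrier SLC25A3 (-0.16, edgeR FDR 0.0714), the citrate carrier SLC25A1 (-0.039, 0.597) and the muscle-type ADP/ATP carrier SLC25A4 (-0.17, 0.0622) did not pass the test. Other falls past the test were those of the oxoglutarate carrier SLC25A11 (-0.36), SLC25A35 (-0.40) and SLC25A23 (-0.45), named after their values were seen.

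The 3 mitochondrial carriers that rose were SLC25A12, SLC25A40 and SLC25A36. SLC25A12, a calcium-activated aspartate and glutamate exchanger of the malate-aspartate shuttle, rose from 24.2 and 26.6 CPM to 44.8 and 44 (log2 fold change 0.80, SE 0.076, edgeR FDR 9.09e-05). SLC25A40, the close relative of SLC25A39, rose from 19.1 and 17.4 CPM to 28.6 and 28.5, and SLC25A36, like SLC25A33 a pyrimidine nucleotide carrier, from 107 and 95.5 to 138 and 132 (0.65 and 0.41). Thus within 2 pairs of related carriers 1 member rose and 1 fell. Without either XRN1-null library 3 mitochondrial carriers were lower in place of 10, and without WT replicate 2 there were 16, and SLC25A5, SLC25A39, SLC25A15, SLC25A11, SLC25A35, SLC25A23, SLC25A30, SLC25A51 and SLC25A36 each lost the call in at least 1 of these fits (highest edgeR FDR 0.0361). With RNA-Seq counts thinned to Ribo-Seq depth SLC25A51, SLC25A15, SLC25A11 and SLC25A35 lost it (edgeR FDR 0.0194, 0.0183, 0.00563 and 0.00752).

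Amino acid carriers moved in both directions, with 5 of 24 higher and 5 lower (20.8% each, against 22.9% and 23.2% of all genes) and a median of 0.10. The largest fall was in SLC7A5 (hg19, chr16:87863629-87903113, minus strand), which had 605 and 612 CPM of mRNA in WT and 248 and 248 CPM in XRN1-null cells, 2.45-fold lower (log2 fold change -1.29, SE 0.06, edgeR FDR 6.11e-06). Its 2 genotypes were far apart beside the spread of the replicates. Its partner SLC3A2 moved the other way in both replicates, from 223 and 232 CPM to 255 and 269 CPM, by 0.21, which did not pass the test (edgeR FDR 0.0238). SLC7A11, the light chain of the cystine and glutamate exchanger, which also pairs with SLC3A2, rose from 60.9 and 63 CPM to 91.2 and 89.3 (0.54, edgeR FDR 0.000217), and SLC7A6, a further partner named after its values were seen, had 0.13 (edgeR FDR 0.134).

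The other 4 amino acid carriers that fell were SLC7A2, SLC6A15, SLC38A10 and SLC1A5. SLC7A2, a cationic amino acid carrier, fell from 62.9 and 61.2 CPM to 37.7 and 36.6 (-0.74, edgeR FDR 5.75e-05). SLC6A15, a sodium-coupled carrier of branched-chain amino acids and proline, fell from 148 and 155 CPM to 99.1 and 105 (-0.57, edgeR FDR 0.00021). The falls of SLC38A10 (-0.39, edgeR FDR 0.00141) and SLC1A5 were smaller. SLC1A5 had 515 and 545 CPM in WT and 419 and 426 CPM in XRN1-null cells (-0.33, edgeR FDR 0.00264), and its call was lost with library totals (FDR 0.00576). Its near relative SLC1A4 had 0.18 (edgeR FDR 0.235), a value that rested on single libraries: it was 0.029 without WT replicate 1 and 0.36 without WT replicate 2 (edgeR FDR 0.78 and 0.000637), and -0.047 with RNA-Seq counts thinned to Ribo-Seq depth.

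Both members of the SLC43 family in the table, sodium-independent carriers of large neutral amino acids as is SLC7A5, rose. SLC43A1 mRNA went from 27.3 and 26 CPM to 52.6 and 53 CPM (0.99, SE 0.068, edgeR FDR 2.34e-05) and SLC43A2 from 23.2 and 22.7 to 32.5 and 33 (0.51, edgeR FDR 0.000581). SLC1A3, a glial-type glutamate transporter with the response element shown above, rose from 44.1 and 53.8 CPM to 90.05 and 87 (0.86, edgeR FDR 0.000197). The fifth was SLC38A3, a glutamine carrier of low level here, from 8.16 and 7.49 to 12.9 and 12 CPM (0.67, edgeR FDR 0.00107).

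The other 3 carriers with a response element core did not pass: SLC3A2 as above, SLC7A1 at -0.061 (edgeR FDR 0.439) and SLC38A1, a sodium-coupled glutamine carrier, at 0.076 (edgeR FDR 0.347). The stress-induced SLC38A2 had -0.19 (edgeR FDR 0.0331). Of 12 members listed as induced by amino acid shortage, 11 of them amino acid carriers and the other the acetyl-CoA transporter SLC33A1, 2 were higher and 2 lower (against 22.9% and 23.2% of all genes), with a median of -0.049. Leaving out either XRN1-null library gave 4 amino acid carriers higher and 3 lower, and leaving out either WT library gave 8 higher. SLC38A10, SLC1A5, SLC38A3 and SLC43A2 lost the call in 1 or both of the XRN1-null fits (highest edgeR FDR 0.0778), and SLC38A3 and SLC38A10 lost it with thinned RNA-Seq counts (edgeR FDR 0.0146 and 0.00859).

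**Figure D2:**
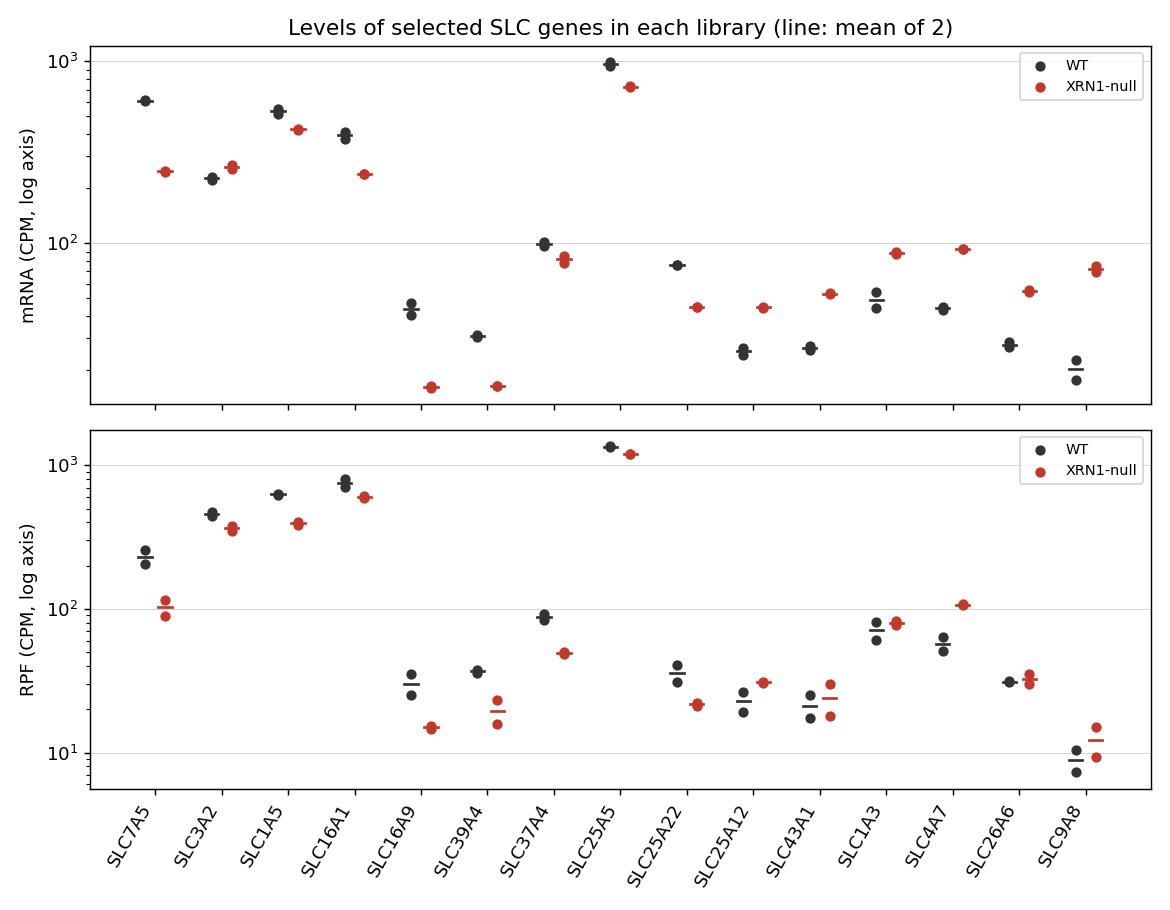
CPM of 15 SLC genes in each library (top, mRNA; bottom, RPF; log axes), with WT in black, XRN1-null in red, points for the 2 replicates and a line for their mean. SLC7A5 and SLC16A9 were lower in XRN1-null cells in both assays, whereas for SLC43A1, SLC26A6 and SLC9A8 the genotypes stood apart in mRNA and overlapped in RPF.

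Among the 114 other transporters 20 rose (17.5%) and 25 fell (21.9%), with a median log2 fold change of -0.11. Of 17 zinc transporters of the SLC30 and SLC39 families 7 fell and 0 rose with edgeR and with DESeq2, against 23.2% and 22.9% of all genes with edgeR. The median was -0.37, and 11 of the 17 (64.7%) had an unadjusted p below 0.05 in either direction, against 69.9% of all genes. SLC39A proteins bring zinc into the cytosol, and SLC30A proteins export it or load it into organelles. The largest fall was in SLC39A4, a plasma membrane zinc importer, from 30.3 and 31.4 CPM to 16.4 and 16.4 CPM (-0.91, SE 0.077, edgeR FDR 5.49e-05). The importers SLC39A10 (-0.66), SLC39A3 (-0.61), SLC39A14 (-0.58), SLC39A6 (-0.38) and SLC39A1 (-0.38) and the Golgi zinc transporter SLC30A5 (-0.42) fell too, named after their values were seen. The abundant SLC39A7, which releases zinc from the endoplasmic reticulum, had -0.064 (edgeR FDR 0.392). The number lower was 4 without either XRN1-null library, where SLC39A6, SLC39A1 and SLC30A5 lost the call (highest edgeR FDR 0.0417), and 10 and 9 without WT replicate 1 or 2; 1 zinc transporter was higher without WT replicate 1. SLC39A6 lost it also with library totals (FDR 0.00959) and with RLE size factors (FDR 0.0056).

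The SLC16 family holds the monocarboxylate transporters and their relatives. SLC16A9 (hg19, chr10:61410522-61495760, minus strand), a carnitine transporter, had the largest fall of any SLC mRNA, from 47 and 40.4 CPM to 16 and 16.4 CPM, 2.7-fold (log2 fold change -1.43, SE 0.095, edgeR FDR 2.11e-05). MCT1, coded by SLC16A1, went from 373 and 410.4 CPM to 241 and 241 (-0.70, edgeR FDR 0.000113). SLC16A14, whose substrate is little known, had -0.74 (edgeR FDR 0.000276; 0.0287 with thinned RNA-Seq counts, which ends the call).

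Of the 7 sodium-proton exchangers 3 rose and 0 fell with edgeR (1 fell with DESeq2), against 22.9% and 23.2% of all genes. The median was 0.34, and 6 of the 7 (85.7%) had an unadjusted p below 0.05, against 69.9% of all genes. SLC9A8 (hg19, chr20:48429250-48508779, plus strand), an exchanger of the Golgi and the plasma membrane, had the largest rise of any SLC mRNA. It went from 22.9 and 17.8 CPM in WT to 69.4 and 74.6 CPM in XRN1-null cells, 3.54-fold (log2 fold change 1.82, SE 0.11, edgeR FDR 1.75e-05). The exchangers SLC9A7 of the trans-Golgi (0.75) and SLC9A9 of endosomes (0.79) rose as well, named after their values were seen. SLC9A9 was near the bottom of the table, at 4.18, 4.14, 7.77 and 6.63 CPM, and lost the call without XRN1-null replicate 1 (edgeR FDR 0.0141), when 2 of the 7 were higher, and with thinned RNA-Seq counts (0.51, edgeR FDR 0.256). Without WT replicate 1 or 2, 4 of the 7 were higher, and without WT replicate 2, 1 was lower.

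SLC4A7, SLC26A6, SLC22A17 and SLC27A3 followed SLC9A8 among the rises of the other transporters. SLC4A7, a sodium-bicarbonate cotransporter, had 42.8 and 44.8 CPM in WT and 92.9 and 93.1 CPM in XRN1-null cells (1.09, SE 0.064, edgeR FDR 1.37e-05). SLC26A6, an exchanger of chloride for oxalate, bicarbonate and other anions, had 26.9 and 28.5 against 55.4 and 54.2 CPM (0.98, edgeR FDR 2.42e-05). SLC22A17, a receptor for lipocalin-bound iron, had 0.94 and SLC27A3, an acyl-CoA synthetase of the fatty acid transport family, 0.85 (edgeR FDR 6.57e-05 and 0.000131). With RNA-Seq counts thinned to Ribo-Seq depth the values were 0.58 for SLC22A17 and 0.59 for SLC27A3, and both lost the call (edgeR FDR 0.0114 and 0.0298).

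Among the falls outside these families were SLC13A3, a sodium-coupled dicarboxylate carrier (-0.76, edgeR FDR 0.00107), and SLC35F1 (-0.73, edgeR FDR 7.54e-05), the largest of 4 falls against 1 rise among 23 members of the SLC35 family (23.2% and 22.9% of all genes), which holds the nucleotide sugar carriers of the Golgi. SLC13A3 lost the call without XRN1-null replicate 2 (edgeR FDR 0.00523) and with thinned RNA-Seq counts (edgeR FDR 0.0209). The number lower among the 23 was 1 with library totals, with thinned counts or without XRN1-null replicate 2, 3 without XRN1-null replicate 1, and 9 and 12 without WT replicate 1 or 2; the number higher was 4 and 2 without WT replicate 1 or 2 and 2 with library totals. Related transporters also parted: the nucleoside transporter SLC29A1 fell from 153 and 142 CPM to 87.2 and 93 (-0.71, edgeR FDR 0.000109) while SLC29A2 rose from 51.7 and 48.5 to 89.1 and 86.2 (0.81, edgeR FDR 5.00e-05), both named after their values were seen. The glucose transporters did likewise, with SLC2A1 at -0.48 (edgeR FDR 0.00463) and the less abundant SLC2A3 at 0.55 (edgeR FDR 0.00202). SLC2A1 lost the call with library totals (FDR 0.00677) and without either XRN1-null library, and SLC2A3 without replicate 2 (highest edgeR FDR 0.0152 and 0.0226). With thinned RNA-Seq counts SLC2A3 had 0.27 and lost the call (edgeR FDR 0.367).

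**Figure D3:**
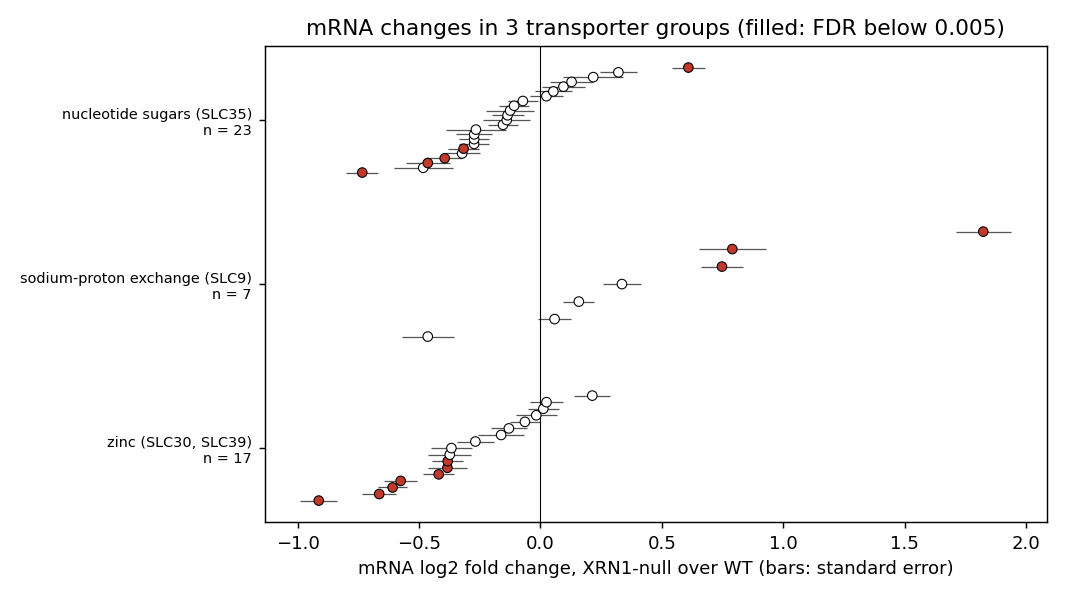
mRNA log2 fold change, XRN1-null over WT (x axis; bars, standard error), of each member of 3 transporter groups, filled where the edgeR FDR was below 0.005. Filled points of the zinc group lie to the left of 0 and those of the sodium-proton exchangers to the right.

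The second comparison asked whether the same genes changed in ribosome footprints. At an FDR below 0.005, 1 member was higher in RPF and 2 were lower, against 0.633% and 1.14% of all genes (1.77% in either direction), and 50 of 177 (28.2%) had an unadjusted p below 0.05, against 33% of all genes. Both XRN1-null libraries were below both WT libraries for 90 members (50.8%, against 32.3% of all genes) and above both for 24 (13.6%, against 32.1%), and the median log2 fold change was -0.18 against -0.0033 over all genes. The counts lower were 15 and 28 without WT Ribo-Seq replicate 1 or 2 and 0 and 3 without XRN1-null replicate 1 or 2, and the counts higher were 4, 3, 0 and 1 in the same order. Over all genes these fits gave 707, 1087, 72 and 99 lower and 588, 1282, 84 and 71 higher. Summed over members, SLC genes took 1.2% and 1.15% of footprint counts in the WT libraries and 1.03% in each XRN1-null library. The same held for mRNA to a smaller degree, with 1.42% and 1.38% against 1.31% and 1.3%.

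Amino acid carriers took 0.276% and 0.275% of footprint counts in the WT libraries against 0.217% and 0.224% in the XRN1-null libraries. Most of the difference lay in SLC1A5, SLC7A5 and SLC3A2, the 3 with the largest differences in RPF CPM: without them the shares were 0.14% and 0.149% against 0.133% and 0.134%. The same shares were 0.563% and 0.533% against 0.478% and 0.476% for other transporters and 0.344% and 0.329% against 0.316% and 0.313% for mitochondrial carriers. In each class the 2 genotypes did not overlap; with 2 libraries per genotype no exact permutation test can reach significance, and none was run. In RPF the number of members below both WT libraries was 12 of 24 amino acid carriers, 59 of 114 other transporters and 17 of 34 mitochondrial carriers. Above both WT libraries were 2, 15 and 6 in the same order. Of all genes 32.3% lay below and 32.1% above.

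SLC7A5 footprints fell with the mRNA. RPF was 256 and 206 CPM in WT and 89.9 and 115 CPM in XRN1-null cells, 2.25-fold lower (log2 fold change -1.17, SE 0.17, edgeR FDR 0.0026). The change in TE was 0.13 (SE 0.18, edgeR FDR 0.731), smaller than its error. Without XRN1-null replicate 1 the RPF call was lost (edgeR FDR 0.0234).

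SLC37A4, the transporter that brings glucose-6-phosphate into the endoplasmic reticulum, fell in RPF from 83.3 and 92.3 CPM to 48.2 and 49.9 CPM (-0.85, SE 0.14, edgeR FDR 0.00418). Its mRNA, at 102 and 96.9 against 85 and 78.2 CPM, did not pass (-0.29, edgeR FDR 0.00833), and its TE change was -0.57 (edgeR FDR 0.03). SLC37A4 (hg19, chr11:118894461-118901616, minus strand) overlaps TRAPPC4 on the other strand. The strandedness of the counting is not given, so its mRNA, RPF and TE values are uncertain. The RPF call was lost without XRN1-null replicate 1 or 2 (edgeR FDR 0.0472 and 0.0277) and with DESeq2 (FDR 0.00539).

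The member called higher was SLC4A7 (hg19, chr3:27414212-27525911, minus strand). Its RPF was 51 and 63.6 CPM in WT and 108 and 106 CPM in XRN1-null cells (0.88, SE 0.15, edgeR FDR 0.00467), so that mRNA and footprints rose together. The call was lost without XRN1-null replicate 1 or 2 (edgeR FDR 0.0176 and 0.015) and when genes below 10 counts in any library were removed (FDR 0.0056).

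Among the members that did not pass, SLC38A10 and SLC1A5 had the lowest FDR. SLC38A10 RPF was 90.1 and 75.6 CPM in WT and 47.7 and 47.5 CPM in XRN1-null cells (-0.78, edgeR FDR 0.00713), and SLC1A5 RPF 633 and 622 against 387 and 405 CPM (-0.66, edgeR FDR 0.00725; called by DESeq2 with an FDR of 0.00199). For SLC7A2 the log2 fold change was -0.63 (edgeR FDR 0.0174). SLC39A4 had -0.94 (edgeR FDR 0.0102) and SLC16A9 -0.95 (edgeR FDR 0.014). These values are near the mRNA values of the same genes for SLC7A2 and SLC39A4, further from 0 for SLC38A10 and SLC1A5 and nearer to 0 for SLC16A9.

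The largest fall in RPF of any member, -1.42 for SLC13A3, rested on 13 and 11.9 against 3.48 and 5.93 CPM (edgeR FDR 0.0132). The largest rise, 1.19, was that of the lysosomal protein SLC46A3, at 9.9 and 7.81 against 20.9 and 17.8 CPM (edgeR FDR 0.00889), with mRNA at 0.80 (edgeR FDR 0.000419); it was named after its values were seen.

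All 40 members called lower in mRNA had a negative RPF log2 fold change, with medians of -0.48 in mRNA and -0.45 in RPF, against -0.53 and -0.40 for the 2344 lower genes of the table, of which 2206 had a negative RPF value. Of the 29 members called higher, 22 had a positive RPF value and the medians were 0.67 in mRNA and 0.20 in RPF, against 0.70 and 0.33 for the 2313 higher genes, of which 1923 were positive. Across the 177 members, which are not independent replicates and share the same libraries, the 2 log2 fold changes had Pearson's r = 0.696 and Spearman's rho = 0.694, against 0.666 and 0.691 over all genes.

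**Figure D4:**
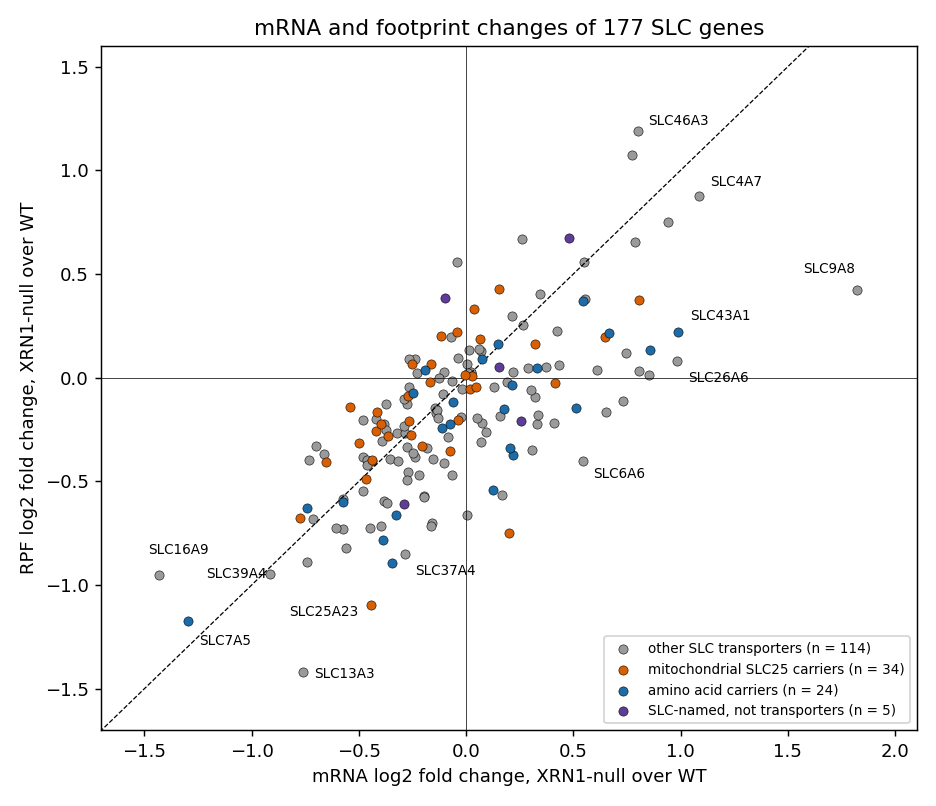
log2 fold change of mRNA (x axis) and of RPF (y axis), XRN1-null over WT, for 177 SLC genes coloured by class, with the line of equal change dashed. The 40 members with lower mRNA all lie below 0 on the y axis, while SLC9A8 and SLC26A6 lie far to the right with RPF values of 0.42 and 0.082.

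The third comparison asked whether footprints per mRNA changed. No member passed for TE in either direction in the main edgeR fit, against 0.0495% of all genes called higher and 1.78% called lower (1.83% in either direction). Of the members 36 (20.3%) had an unadjusted p below 0.05 in that fit, against 23.3% of all genes. DESeq2 called 2 members lower (SLC26A6 and SLC9A8), of 322 genes it called lower over the table. The median TE log2 fold change was -0.27 for amino acid carriers, -0.12 for other transporters and 0.073 for mitochondrial carriers, against 0.0081 over all genes. Negative values were found for 18 of 24, 71 of 114 and 14 of 34 in the same order, and for 4947 of all 10105 genes. A TE change uses the same RNA-Seq libraries as the mRNA change, and the 2 are not independent. Of the 29 members with higher mRNA 24 had a negative TE value, with a median of -0.46 (1960 of 2313 genes, median -0.39). The median for amino acid carriers ranged from -0.31 to -0.11 when single libraries were left out, the latter without WT Ribo-Seq replicate 2.

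**Figure D5:**
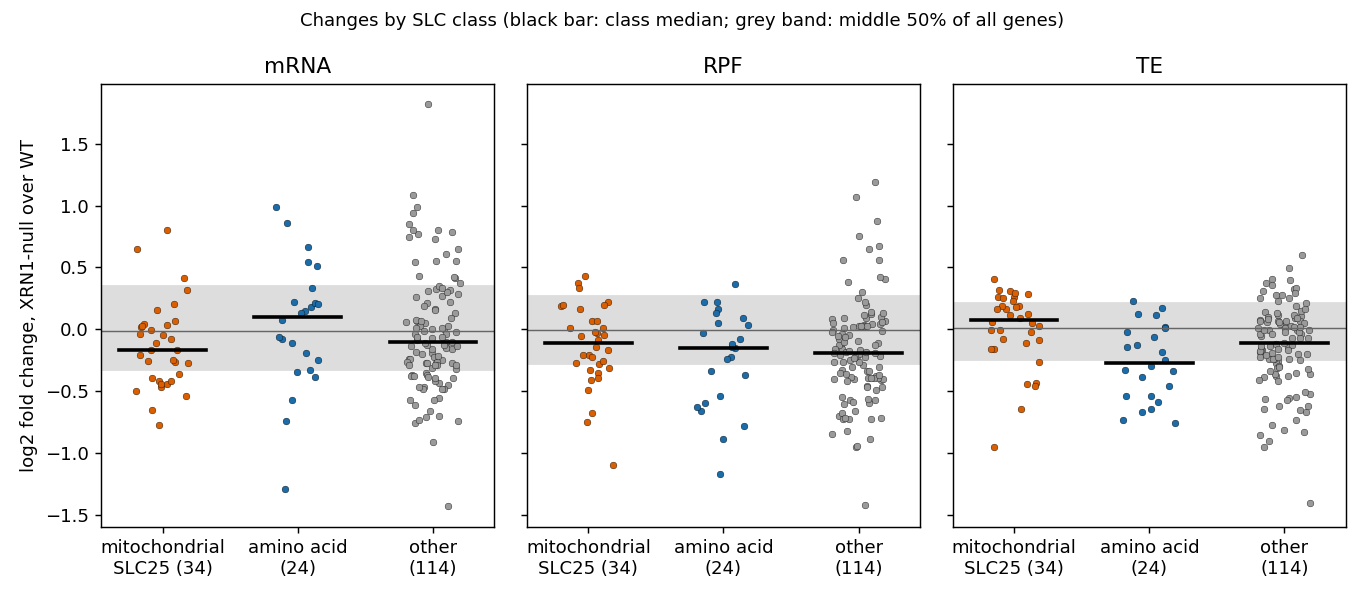
log2 fold change, XRN1-null over WT, of each SLC gene by class for mRNA, RPF and TE (black bars, class medians; grey band and line, middle 50% and median of all genes). In the TE panel the amino acid carriers have a median of -0.27 and the mitochondrial carriers of 0.073.

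SLC26A6 (hg19, chr3:48663156-48672926, minus strand) came nearest to the threshold. Its mRNA was higher as given above, while RPF was 31.2 and 31 CPM in WT and 35.5 and 29.97 CPM in XRN1-null cells, and the groups overlapped. TE went from 1.12 to 0.598 (log2 fold change -0.90, SE 0.16, edgeR FDR 0.00588). It passed with library totals (FDR 0.00411), with the filter on 10 counts (FDR 0.00477) and with DESeq2 (FDR 0.0019).

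SLC9A8 RPF was 7.29 and 10.3 CPM in WT and 15.2 and 9.36 CPM in XRN1-null cells (0.42, SE 0.29, edgeR FDR 0.338), with overlapping groups. Its TE log2 fold change was -1.40 (SE 0.36, edgeR FDR 0.0362; DESeq2 FDR 0.00233), from a TE of 0.434 to 0.17. The taurine transporter SLC6A6 (-0.95, edgeR FDR 0.015) and the anion exchanger SLC26A11 (-0.81, edgeR FDR 0.0257), named after their values were seen, had mRNA changes of 0.54 and 0.65, both called higher, and RPF changes of -0.40 and -0.16. The mRNA call of SLC6A6 was lost without XRN1-null replicate 1 (edgeR FDR 0.00617) and with thinned RNA-Seq counts (edgeR FDR 0.0184). SLC26A11 overlaps SGSH on the other strand.

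Several amino acid carriers had negative TE values, and none passed in the main edgeR fit. SLC3A2 RPF was 476 and 446 CPM in WT and 351 and 378 CPM in XRN1-null cells, without overlap, against a small positive mRNA change, and TE went from 2.03 to 1.39 (-0.54, SE 0.13, edgeR FDR 0.0291). Both mRNA and RPF of SLC7A5 were lower, and for SLC3A2 the RPF change was -0.34 (edgeR FDR 0.0981), so the 2 chains of the LAT1 exchanger had negative RPF values and mRNA values of opposite sign. SLC43A1 had a TE change of -0.76 (edgeR FDR 0.118), with RPF of 25 and 17.46 against 17.88 and 29.97 CPM. SLC1A3 had one of -0.74 (edgeR FDR 0.0332), with RPF of 60.4 and 81.3 against 76.7 and 82.4 CPM. The SLC1A3 value was -0.90 without WT RNA-Seq replicate 2 and -0.45 without WT Ribo-Seq replicate 2. SLC43A2, the member with the highest WT TE, went to 2.12 (-0.64, edgeR FDR 0.0271) and SLC7A6 from 0.328 to 0.204 (-0.67, edgeR FDR 0.0488). SLC7A6 overlaps SLC7A6OS on the other strand.

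Among the carriers described here whose mRNA was lower, positive TE changes were 0.49 for SLC16A9 (edgeR FDR 0.24), 0.41 for SLC25A51 (edgeR FDR 0.198) and 0.37 for SLC16A1 (edgeR FDR 0.137), and none passed. Without WT Ribo-Seq replicate 2 the values were 0.20 for SLC16A9 and 0.21 for SLC25A51, and without WT Ribo-Seq replicate 1 they were 0.69 and 0.55. SLC16A1 RPF was 701 and 806 CPM in WT and 594 and 607 CPM in XRN1-null cells (-0.33, edgeR FDR 0.101). SLC25A5, the most abundant member, had an RPF log2 fold change of -0.16 and a TE change of 0.25 (edgeR FDR 0.346 and 0.223).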

How the data were processed

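mRNA (RNA-Seq) and ribosome footprints (Ribo-Seq) of WT and XRN1-null HEK293T cells were measured in 2 replicates each. Ribosomal RNA reads were filtered out by the authors with Bowtie2, the rest were aligned to hg19 by TopHat2, and the authors deposited raw counts per gene with a gene width. According to the study's methods genes were kept above an FPKM cut-off, and all deposited genes were used. Further columns deposited by the authors hold fold changes, p-values and TE ratios of their own comparisons and were not used. The strandedness of the counting is not given in the sources used here.

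Each assay was fitted with edgeR 4.0.16 in R 4.3.3 (quasi-likelihood test, TMM factors within assay, genotype as the only term). TE changes were the assay by genotype interaction over all 8 libraries. FDR is the Benjamini-Hochberg adjusted p over 10105 genes, with a threshold of 0.005. Standard errors were derived from the F statistic and the log2 fold change. CPM values use TMM-scaled totals. The code was tested on simulated counts. Gene positions came from GENCODE (GRCh37 coordinates, 174 of 177 members matched). Of the members, 67 overlap another gene on the same strand and 104 on the other strand. Promoters came from RefSeq (GRCh38.p14). Replicates of each group differed beyond sampling noise, and p-values measure only the spread between these libraries. Counts include PCR duplicates.

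Members, classes, gene lists and motifs were chosen with earlier results of these data known. Genes were named by a rule: the 5 largest called mRNA rises and falls in each class, members called in RPF or TE, the 4 highest WT mRNA levels per kb in each class, the 3 highest and 3 lowest WT TE values among members with at least 50 RPF counts in every library, and a few sets of related carriers. Members named beyond it are stated as such, and values of some members are not reported here. Alternatives were RLE size factors, library totals, DESeq2 1.42.0, a minimum of 10 counts in every library, an FDR of 0.05, a replicate block, thinning of RNA-Seq to Ribo-Seq depth, and each library left out in turn. For the classes and families, some of these were chosen after seeing the data.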

Additional observations from a re-analysis of the deposited data

How the results depend on the processing

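No called value of the 67 members followed singly changed direction under the alternatives run. Fewer members were called in mRNA when RNA-Seq counts were thinned to Ribo-Seq depth. Calls dropped from 29 to 18 higher and from 40 to 24 lower, and all 42 of these were among the 69 called at full depth. Over all genes calls dropped from 2313 to 1835 higher and from 2344 to 1538 lower. In RPF itself 1 member was higher and 2 were lower, against 64 and 115 of all genes. By class, thinning left 6 mitochondrial carriers lower and 10 other transporters higher and 14 lower. It gave median mRNA values of -0.065 for all members, -0.077 for mitochondrial and 0.059 for amino acid carriers, and median TE values of -0.32 for amino acid carriers and -0.055 for other transporters. Library totals gave 16 other transporters lower in mRNA and 1 member lower in TE, against 1924 and 229 of all genes. Median mRNA values were -0.044 for all members, -0.11 for mitochondrial carriers, 0.16 for amino acid carriers and -0.050 for other transporters. Median TE values were -0.11 for all members and -0.31 for amino acid carriers. The median mRNA value of all genes moved from -0.015 to 0.040. An FDR of 0.05 gave 68 members lower in mRNA (8 amino acid carriers higher, 45 other transporters lower), 3 higher and 19 lower in RPF and 10 lower in TE. Of all 10105 genes it gave 3319 higher and 3460 lower in mRNA, 714 higher and 847 lower in RPF and 653 lower in TE. The minimum of 10 counts gave 0 members higher in RPF and 1 lower in TE, against 47 and 204 of all genes it kept. It gave a median TE of -0.30 for amino acid carriers. DESeq2 gave 2 members lower in TE, against 322 of all genes. The cause of these shifts was not tested beyond the construction of each alternative.

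Leaving out each library in turn gave 18 to 45 members higher and 17 to 72 lower in mRNA, 3 to 16 mitochondrial carriers lower, 4 to 8 amino acid carriers higher and 3 to 7 lower, and 12 to 32 other transporters higher and 11 to 47 lower. In RPF it gave 0 to 4 members higher and 0 to 28 lower. Median mRNA values ranged from -0.13 to -0.032 for all members and from 0.057 to 0.11 for amino acid carriers. Median TE values ranged from -0.12 to -0.039 for all members, from 0.0014 to 0.17 for mitochondrial carriers, from -0.31 to -0.11 for amino acid carriers and from -0.15 to -0.060 for other transporters. In these fits the group left with 1 library is assumed to vary like the other.

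The labels number the replicates in each group but do not say that a number marks a shared culture or day, and same-numbered libraries deviated together to an unequal degree (correlation 0.19 between the genotypes in RNA-Seq and 0.080 in Ribo-Seq; between the assays 0.36 in WT and 0.033 in XRN1-null cells). With the replicate block, 35 members were higher and 60 lower in mRNA, all 69 calls among them, with 39 other transporters lower. In RPF 3 were higher and 17 lower, with SLC38A10, SLC1A5, SLC7A2, SLC39A4 and SLC16A9 among the lower. Over all genes the block gave 2858 higher and 2805 lower in mRNA and 616 and 665 in RPF. The median TE of amino acid carriers was -0.22. A block over the cultures of both assays called 4 members lower in TE and 0 higher, against 435 genes lower and 55 higher over the table. The 4 were SLC1A3 (edgeR FDR 0.00184), SLC26A6 (0.00214), SLC3A2 (0.0023) and SLC9A8 (0.00432).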

Other observations

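Transporters of the SLC superfamily that go by other symbols are not among the members. Of 29 such genes in the table, 5 were higher and 8 lower in XRN1-null mRNA (edgeR FDR below 0.005, which 22.9% of all genes passed as higher and 23.2% as lower), with a median log2 fold change of -0.12. SPNS2, which exports sphingosine-1-phosphate, had 32.9 and 36.6 CPM in WT and 79.8 and 81 CPM in XRN1-null cells (log2 fold change 1.21, edgeR FDR 1.51e-05), and MFSD2A, which takes up lysophosphatidylcholine, had 9.66 and 8.95 CPM in WT and 3.28 and 3.42 CPM in XRN1-null cells (log2 fold change -1.48, edgeR FDR 5.97e-05). Among the sideroflexins, which hold the mitochondrial serine carrier SFXN1, SFXN3 had 0.89, SFXN5 0.69 and SFXN2 0.40, all 3 higher, while SFXN1 (-0.30) and SFXN4 (-0.38) were lower.

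In 3 lists of genes that serve SLC proteins the counts stand against the same shares of all genes (23.2% lower and 22.9% higher). In the TIM22 pathway, which inserts SLC25 carriers into the inner mitochondrial membrane, 4 of 9 genes were lower in mRNA (TIMM8A, TIMM8B, TIMM9 and TIMM10), with a median of -0.29. Of the Na,K-ATPase subunits and the chaperones of the SLC16 family 2 of 7 were lower (BSG and ATP1B3). BSG, the chaperone that SLC16A1 needs to reach the plasma membrane, had 792 and 781 CPM in WT and 585 and 575 CPM in XRN1-null cells (log2 fold change -0.44, edgeR FDR 0.000425), and the related chaperone EMB, at -0.34, did not pass (edgeR FDR 0.00696). Of the ER membrane complex, which inserts multi-pass membrane proteins, 6 of 10 were lower and 2 higher (EMC1 at 0.32 and EMC9 at 0.90).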
